A study of Homo sapiens with 3 samples.

Results

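The sites described here are the peaks of the VCP list that had a peak of the Flag list overlapping them or lying within 1 kb, 259 of the 1803 VCP peaks on chromosomes 1 to 22, X and Y (14.4%, exact binomial 95% interval 12.8 to 16.1). They were chosen by their positions in both lists, so the closeness of the peaks is the rule and not a result. In 196 the intervals overlapped by at least 1 bp, and in 63, called near misses here, 1 bp or more lay between them. The other 1544 VCP peaks had no Flag peak within 1 kb, and the whole Flag list held 5692 peaks on the same chromosomes.

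The libraries came from HCT116, a human colorectal cancer cell line, overexpressing Flag-tagged VCP. Chromatin was fixed for 10 minutes in 1% formaldehyde, cut with micrococcal nuclease, and pulled down either by a VCP antibody or by one against the Flag tag; an input was sequenced beside them. All 3 samples carried the tagged protein, and each was 1 library. The labels do not give the promoter of the construct or say whether the cells were a clone, a library of untagged cells was not analysed here, and the VCP antibody can bind the cell's own VCP as well as the tagged form. No value below has replicate error or a test between conditions. Intervals are exact 95% intervals that cover counting error only.

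VCP, also called p97, is a ring-shaped ATPase that pulls ubiquitin-tagged proteins out of membranes, complexes and chromatin, most often to hand them to the proteasome. Cofactors such as UFD1 and NPLOC4 bind the ubiquitin chain and guide the substrate. On chromatin VCP is known to extract proteins such as stalled RNA polymerase, replication helicase and repair factors. It is not a sequence-specific DNA-binding protein, so a peak of VCP marks chromatin to which it was crosslinked directly or through other proteins.

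Sequences of promoters that held both summits are shown first because the text below refers to them. Of the 243 members on chromosomes with listed windows 41 had both summits inside the same 300-base promoter window, which runs from 250 bases before a transcription start to 50 bases from it, at 44 genes. Among these windows, ranked by the sum of the ranks of -log10 q (minus the logarithm of the peak caller's false discovery rate, so higher is stronger) in both lists, the first 6 were EIF2B4, PSMF1, BRPF1, PDS5B, WDR36 and PIK3R3. PDE12, where both summits fell on the same base, and ATG101, which had the highest VCP fold enrichment of all members, were added after their values were seen. The sequences are RefSeq's on GRCh38.p14, 5′ to 3′ along the gene. Capitals mark matches, on either strand, to any of 9 motifs. CCGGAAG is the core of ETS factors and GGGCGG that of the SP family. The box bound by NF-Y was searched as CCAAT, and the E-box of MYC and USF factors as CACGTG. The cyclic AMP response element was searched as TGACGTC, and the element bound by TBP as TATAAA. The last 3 were GCGCATG for NRF1, AAGATGG for YY1 and CTCGCGA for ZBTB33, and matches of different motifs may overlap.
EIF2B4, chr2:27370289-27370588, minus strand: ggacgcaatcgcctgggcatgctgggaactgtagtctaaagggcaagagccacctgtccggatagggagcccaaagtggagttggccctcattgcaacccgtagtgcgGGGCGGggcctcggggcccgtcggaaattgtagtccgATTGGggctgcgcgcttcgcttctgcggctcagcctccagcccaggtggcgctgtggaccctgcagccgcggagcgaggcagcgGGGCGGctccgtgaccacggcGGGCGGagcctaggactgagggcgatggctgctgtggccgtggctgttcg
PSMF1, chr20:1118352-1118651, plus strand: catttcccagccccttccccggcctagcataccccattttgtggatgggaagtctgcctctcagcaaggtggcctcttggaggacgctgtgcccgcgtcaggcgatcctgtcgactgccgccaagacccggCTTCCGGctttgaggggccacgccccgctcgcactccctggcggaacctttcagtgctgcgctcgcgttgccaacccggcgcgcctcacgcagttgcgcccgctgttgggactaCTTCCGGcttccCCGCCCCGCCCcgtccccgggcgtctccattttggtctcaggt
BRPF1, chr3:9731485-9731784, plus strand: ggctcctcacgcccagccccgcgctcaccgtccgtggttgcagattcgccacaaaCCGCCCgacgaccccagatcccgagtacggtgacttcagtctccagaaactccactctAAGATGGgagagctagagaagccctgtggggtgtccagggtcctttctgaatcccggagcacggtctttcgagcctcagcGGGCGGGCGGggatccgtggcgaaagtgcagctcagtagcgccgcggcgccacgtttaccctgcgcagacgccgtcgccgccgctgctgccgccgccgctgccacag
PDS5B, chr13:32586202-32586501, plus strand: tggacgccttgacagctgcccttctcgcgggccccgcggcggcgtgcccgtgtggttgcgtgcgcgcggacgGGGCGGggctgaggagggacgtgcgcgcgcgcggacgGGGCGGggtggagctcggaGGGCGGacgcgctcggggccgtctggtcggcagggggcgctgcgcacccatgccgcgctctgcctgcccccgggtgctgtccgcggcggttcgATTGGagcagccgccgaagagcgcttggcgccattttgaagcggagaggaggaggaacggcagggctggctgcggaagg
WDR36, chr5:111092098-111092397, plus strand: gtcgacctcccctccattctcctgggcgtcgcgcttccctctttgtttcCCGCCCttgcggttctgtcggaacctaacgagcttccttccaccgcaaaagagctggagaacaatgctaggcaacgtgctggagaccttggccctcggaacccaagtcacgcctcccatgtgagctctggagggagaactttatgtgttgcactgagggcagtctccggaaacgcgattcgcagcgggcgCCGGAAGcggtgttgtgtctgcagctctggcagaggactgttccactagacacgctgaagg
PIK3R3, chr1:46132746-46133045, minus strand: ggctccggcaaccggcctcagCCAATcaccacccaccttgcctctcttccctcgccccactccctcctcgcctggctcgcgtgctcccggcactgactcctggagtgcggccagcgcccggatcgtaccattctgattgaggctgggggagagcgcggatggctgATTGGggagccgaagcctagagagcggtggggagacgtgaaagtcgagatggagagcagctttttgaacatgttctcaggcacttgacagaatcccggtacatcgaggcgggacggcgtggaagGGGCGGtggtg
PDE12, chr3:57556024-57556323, plus strand: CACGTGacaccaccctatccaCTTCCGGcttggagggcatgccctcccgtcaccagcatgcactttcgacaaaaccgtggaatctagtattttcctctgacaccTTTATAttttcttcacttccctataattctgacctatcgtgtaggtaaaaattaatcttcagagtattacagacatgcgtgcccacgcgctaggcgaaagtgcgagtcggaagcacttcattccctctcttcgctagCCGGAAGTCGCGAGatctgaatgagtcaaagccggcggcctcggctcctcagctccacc
ATG101, chr12:52069728-52070027, plus strand: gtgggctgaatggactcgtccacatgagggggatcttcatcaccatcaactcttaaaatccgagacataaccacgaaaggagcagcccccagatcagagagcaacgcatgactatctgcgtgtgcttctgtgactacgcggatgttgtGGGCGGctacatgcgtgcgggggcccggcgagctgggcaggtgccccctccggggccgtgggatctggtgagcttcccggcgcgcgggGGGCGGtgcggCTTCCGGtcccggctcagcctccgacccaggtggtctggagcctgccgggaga

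At EIF2B4, which encodes a subunit of the exchange factor that recharges translation initiation factor eIF2, the VCP summit was base 168 of the window printed above and the Flag summit base 118. The VCP peak there rested on 14 reads (7.65 to 23.5) and the Flag peak on 20 (12.2 to 30.9). At PSMF1, which encodes an inhibitor of the proteasome, the summits were bases 207 and 167, with 12 VCP reads (6.20 to 21.0) and 21 Flag reads (13.0 to 32.1). BRPF1, a scaffold of a histone acetyltransferase complex, and PDS5B, a regulator of cohesin, had their pairs of summits 7 bases apart. In the PDE12 window both summits were base 148; PDE12 is a mitochondrial enzyme that trims poly(A) tails. The ATG101 window held the VCP summit at base 105 and the Flag summit at base 44, and that gene encodes part of the complex that starts autophagy. In all 8 windows the summits lay within 300 bases by the way they were picked, so the spacing here is a description of these windows only.

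The ETS and SP motifs were about as common in windows under members as in windows under the other VCP peaks. Promoter windows outside chromosome 8 that held a member's VCP summit numbered 72. The ETS motif, the core bound by GABP and other ETS factors, was in 20 of them (27.8%, 17.9 to 39.6), in 28.6% of the 98 windows under the other VCP summits, in 26.7% of the 1007 under Flag summits alone, and in 12.8% of all 22175 windows. Among all windows whose GC content lay between the quartiles of the members' windows it was in 17.7%. The SP motif was in 73.6% of the members' windows (61.9 to 83.3), 78.6% of those under other VCP summits and 56.3% of all windows, and in 75.5% of those of like GC content. The CCAAT box was in 29.2% of the members' windows (19.0 to 41.1), 20.4% of those under other VCP summits (12.9 to 29.7) and 34.7% of all windows. The E-box was in 9.72% (3.999 to 19.0), 14.3% (8.04 to 22.8) and 8.34% in the same order, the YY1 motif in 5.56% (1.53 to 13.6), 11.2% (5.74 to 19.2) and 6.04%, and the NRF1 motif in 2.78% (0.338 to 9.68), 7.14% (2.92 to 14.2) and 5.26%. For each of these 4 motifs the intervals of the members' windows and of those under other VCP summits meet. Median GC content was 65.5% in the members' windows and 62.3% in all windows. A match is only the presence of these letters, and no binding was measured at them. The ETS share of the members' windows lay within the interval of the windows under other VCP summits (19.9 to 38.6), so the ETS count does not separate them.

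Most members lay at gene ends. A summit counted as being at an end if no more than 1 kb separated it from an outer end, start or finish, of a protein-coding RefSeq gene. By that measure 165 members (63.7%, 57.5 to 69.6) were at an end, 55 (21.2%) were inside a gene body and 39 (15.1%) lay between genes, whereas the other VCP peaks had 14.9%, 30.8% and 54.3% in these places. The background over all VCP peaks was 21.9% at gene ends, and over all Flag peaks 35.6%. Seen the other way, 41.8% of VCP peaks at gene ends (36.9 to 46.8), 10.4% of those in bodies (7.91 to 13.3) and 4.44% of those between genes (3.18 to 6.02) had a Flag peak nearby. Since Flag peaks are themselves commoner at gene ends, the rule favours VCP peaks there, and these shares carry no test. The 5422 Flag peaks with no VCP peak within 1 kb had 34.2% at gene ends, below the 63.3% of the paired Flag peaks.

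**Figure D1:**
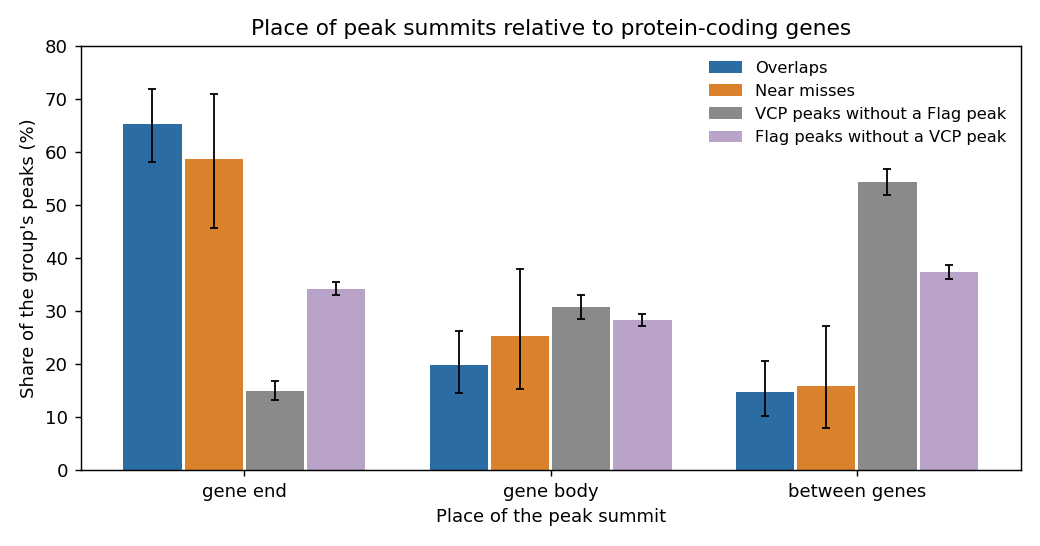
Share of peaks (vertical axis, percent) whose summit lay at an end of a protein-coding gene, in a gene body or between genes, for overlaps (n = 196), near misses (n = 63), VCP peaks without a Flag peak (n = 1544) and Flag peaks without a VCP peak within 1 kb (n = 5422). Bars are shares and lines are exact binomial 95% intervals; overlaps (65.3%) and near misses (58.7%) both stand far above the other VCP peaks (14.9%) at gene ends.

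The promoter windows also give strands and transcription starts, so the ends could be told apart. Of the 165 members at gene ends the nearest end was the start side in 134 and the far side in 7, and for 24 the strand was not in the table used. Starts on chromosome 8 were not used here. Of the 243 members elsewhere 149 (61.3%, 54.9 to 67.5) had the VCP summit within 1 kb of a listed start, against 13.6% (11.8 to 15.5) of the other VCP peaks; the background over all VCP peaks outside that chromosome was 20.6%. Members also lay more often than other VCP peaks where the ends of 2 or more genes meet, 12.4% (8.61 to 16.99) against 2.46% (1.75 to 3.36). Among VCP peaks at gene ends alone, the share with a Flag peak nearby differed little. It was 45.7% (33.7 to 58.1) at ends of 2 or more genes and 40.9% (35.5 to 46.5) at the end of 1 gene. At 13 of the 243 members (5.35%, 2.88 to 8.97) the neighbours were transcribed away from each other within 1 kb. The share of other VCP peaks was 1.34% (0.811 to 2.09), from 19 peaks. However, 149 members and 192 other VCP peaks had a listed start within 1 kb. Set against those numbers, 13 and 19 do not place members above the other VCP peaks. Pairs of such neighbours at members included SRSF9 and DYNLL1, which had 2 of the 13 members, TSGA10 and LIPT1, and EWSR1 and RHBDD3. PPAT and PAICS, and RPL35 and ARPC5L, were also among them.

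Several members that fell in gene bodies by the outer gene ends lay at starts inside the gene. Among VCP peaks in gene bodies, 18 of the 41 within 1 kb of a listed start had a Flag peak nearby (43.9%, 28.5 to 60.3), as against 30 of the 441 farther from one (6.80%, 4.64 to 9.57). The ATG101 peak (chr12:52069722-52070014) is of this kind: its summit lay 146 bp upstream of a start listed inside the outer bounds of the gene, with 19 reads (11.4 to 29.7), a fold enrichment of 7.30 and a -log10 q of 7.87. The paired Flag peak had a fold enrichment of 4.21 and 11 reads (5.49 to 19.7), so the order of the libraries was the opposite of the common one. At PSMF1 the VCP summit was 44 bp upstream of such a start and the Flag summit 84 bp upstream. Others were PIK3R3, a regulatory subunit of PI3 kinase (74 and 154 bp upstream), SLC25A22, a mitochondrial glutamate carrier (113 bp upstream for both), CELF1, an RNA-binding regulator of splicing (152 and 103 bp upstream), LSM5, part of the U6 snRNP ring (124 and 106 bp downstream), and RARA, a retinoic acid receptor (300 and 240 bp upstream). These 18 members were not at the outer end of any protein-coding gene, so they are missing from the counts by function below.

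In the 149 members with a listed start, 2 of which share 1 start, the summits of both antibodies crowded close to it. The VCP summits had a median position of -5 bp (quartiles -170 and 118; negative is upstream), with 75 upstream and 74 downstream. The paired Flag summits had a median of -79 bp (quartiles -197 and 108), with 90 upstream and 59 downstream. Within single members there was no such lean: the Flag summit was the farther upstream in 77 and the farther downstream in 70. The start lay between the summits in 37 members. That was so in 19 of 119 overlaps and in 18 of 30 near misses, whose summits are farther apart by construction.

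**Figure D2:**
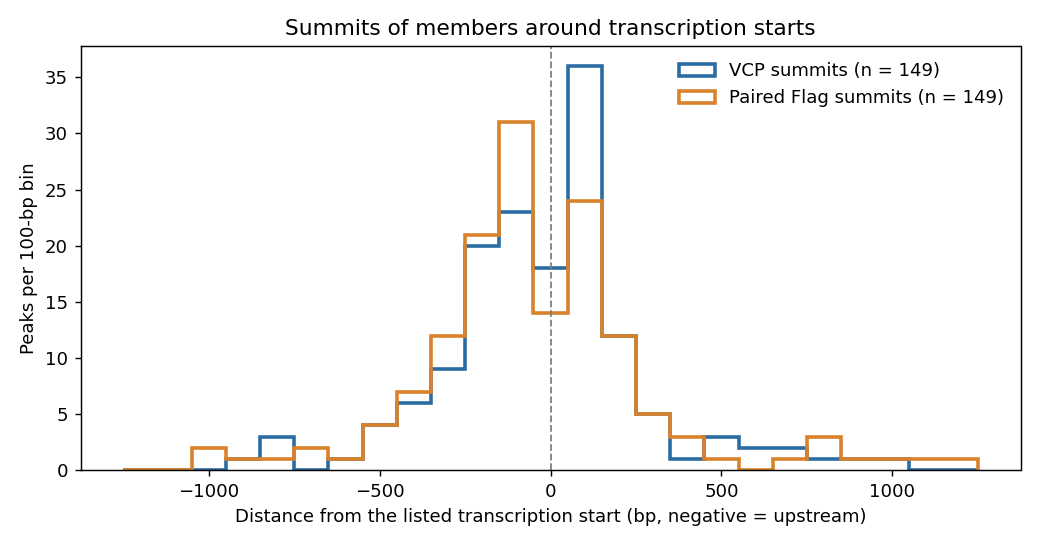
Number of members (vertical axis, per 100-bp bin) by the distance of the VCP summit and of the paired Flag summit from the listed transcription start (horizontal axis, bp), for the 149 members with a listed start within 1 kb of the VCP summit. Both outlines are highest within 200 bp of the start, and Flag has 90 summits upstream against 75 for VCP.

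In all, 195 protein-coding genes had a member at an end, 0.982% of 19866, and of these 78 (40%) were in at least 1 of 37 function lists, which together cover 25.5% of protein-coding genes. The same share was not counted for all genes with a VCP peak at an end, so 40% is not shown to be particular to members. Genes of protein turnover and membrane sorting, the processes VCP is best known for, were present mainly as endosome and lysosome genes. That list had 7 of 266 genes with a member (2.63%, against the 0.982% over all genes), each an overlap: BORCS7, CHMP6, PIKFYVE, RAB28, SNX16, SNX17 and STAM2. Flag peaks lay at an end of 24.4% of its genes, against 11.7% of all protein-coding genes. Other lists also stood above all genes in this, such as oxidative phosphorylation (22.5%) and chromatin regulators (20.7%), so a raised share is not particular to this list. BORCS7 belongs to the complex that moves lysosomes along microtubules, and its peaks had 11 VCP and 18 Flag reads, with fold enrichments of 4.14 and 5.12. CHMP6 is a subunit of ESCRT-III, the filament that closes vesicles into endosomes (15 and 21 reads; 3.62 and 4.33). STAM2, which recognises ubiquitin on endosomal cargo, had 15 and 15 reads. PIKFYVE, the lipid kinase of late endosomes, had 9 and 15, and SNX17, a cargo adaptor of recycling endosomes, shares the peak of EIF2B4. The VCP peaks of all 7 genes stood at 9 to 15 reads, so each alone is weak.

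The autophagy list had 1 of 59 genes at an end, GABARAP, whose product sits on the autophagosome membrane (16 and 23 reads; VCP fold enrichment 3.85, Flag 5.11). Beside it, ATG101 and VMP1, which acts in forming autophagosomes, had members in their bodies. Of 432 ubiquitin ligase and conjugase genes 3 had a member (0.694%, below the share over all genes): RNF130, RNF139 and RNF20. RNF130 had 11 VCP reads and 21 Flag reads, with fold enrichments of 4.38 and 7.73. RNF139, a ligase of the endoplasmic reticulum, was a near miss with 265 bp between the intervals. RNF20 ubiquitinates histone H2B, and there the gap was 8 bp, at a peak shared with PGAP4. No gene of the lists of VCP cofactors (31 genes), deubiquitinases (110) or proteasome subunits and factors (57) had a member at an end, though PSMF1 had a member at an inner start. With 0.982% of all genes having a member, 0 is near background in lists of these sizes. Any VCP peak at an end was met at 0 of the cofactor genes and at 1 gene in each of the other lists.

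Among genes of protein synthesis, cytoplasmic ribosomal protein genes had 4 of 87 with a member (4.60%), RPL7A, RPL35 and RPL7L1 among them. RPL7L1 is named for its likeness to RPL7 and is not a standard subunit of the ribosome. RPL7A shared its peak with MED22 (11 and 14 reads; fold enrichments 4.03 and 4.84), and RPL35 shared its peak with ARPC5L. The translation factor list had 3 of 89: EIF2B4, PABPC1, the main cytoplasmic poly(A)-binding protein (17 and 27 reads), and EEF1AKMT2, which is a methyltransferase acting on elongation factor 1A and not itself a factor. TRMT1 and TSEN54, which modify and splice tRNA, were both near misses (gaps 51 and 116 bp). Each peak lay nearer to an end of another gene. These were NACC1 (76 bp, against 188 bp for TRMT1) and CASKIN2 (299 bp, against 692 bp for TSEN54). Genes for mitochondrial ribosomal proteins had none of 82, although 6 of them had a VCP peak at an end.

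Other mitochondrial genes had members. Of 142 oxidative phosphorylation genes 6 had a member (4.23%), which were 6 of the 11 such genes with any VCP peak at an end (54.5%). Over all protein-coding genes with a VCP peak at an end that share was 42.0%, 195 of 464. NDUFA12, NDUFAB1, NDUFB4 and NDUFS7 encode subunits of complex I, and COX5A and COX8A subunits of complex IV. They were weak in the VCP list, at 7 reads for NDUFA12, 8 for COX5A, 8 for COX8A, 10 for NDUFB4, 11 for NDUFAB1 and 14 for NDUFS7. Flag reads there were 9, 14, 11, 8, 14 and 14 in the same order. COX5A was the only near miss of the 6, with a gap of 238 bp. The list of mitochondrial import and dynamics had MTIF3 and TFB2M, which are a translation and a transcription factor of mitochondria. The peak at TFB2M lay nearer to an end of CNST (182 bp, against 377 bp).

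Nuclear functions came next. Chromatin regulators had 6 of 290 genes (2.07%): BRPF1, HMGB1, KMT2A, KMT2B, RBBP5 and SIRT4. The peak at HMGB1 lay nearer to an end of USPL1 (144 bp, against 179 bp). KMT2A and KMT2B are histone H3 lysine 4 methyltransferases and RBBP5 is a core subunit of their complexes, whereas SIRT4 is a sirtuin of mitochondria. Reads at KMT2A were 12 in VCP and 21 in Flag, at KMT2B 9 and 14, and at RBBP5 11 and 13. The general transcription list had 4 of 191: HEXIM1, the inhibitor of the elongation kinase P-TEFb (14 and 15 reads), the Mediator subunits MED13 and MED22, and POLR2I, a subunit of RNA polymerase II. The peak at POLR2I lay nearer to an end of TBCB (138 bp, against 230 bp). Splicing genes had HNRNPA0, HNRNPA2B1 and SRSF9 of 194. The cohesin list had PDS5B (12 and 15 reads) and ESCO1, the acetyltransferase that locks cohesin on DNA (9 and 13). BRCA1 and MUS81 were the only genes of 127 in the DNA repair list. At BRCA1 the VCP summit lay 931 bp downstream of the start and the Flag summit 260 bp, a near miss with 326 bp between the intervals.

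Of the 30 NF-kappa-B genes 2 had a member, the highest share of any list (6.67%) and the only 2 with a VCP peak at an end. This is the top of 37 lists and rests on 2 genes. Flag peaks lay at an end of 33.3% of the list's genes, against 11.7% of all protein-coding genes. In the tRNA, replication-dependent histone and cyclin lists, too, every gene with a VCP peak at an end had a member. NFKB2 encodes the p100 precursor, whose cutting by the proteasome yields the p52 subunit. Its VCP peak (chr10:102394115-102394315) had 18 reads (10.7 to 28.4) and a fold enrichment of 4.72, and the Flag peak 16 reads (9.15 to 26.0) and 4.39. The Flag summit lay 444 bp into the gene, farther than the VCP summit at 116 bp. BIRC3, which encodes a ubiquitin ligase of the same pathway, had 8 VCP and 12 Flag reads, with the summits 137 and 111 bp downstream of the start.

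Zinc finger ZNF genes had 8 of 566 (1.41%) on 7 peaks, led by ZNF76 (18 and 15 reads; VCP fold enrichment 5.32). Solute carriers had 7 of 381 (1.84%), each an overlap, led by SLC35B1, an ATP carrier of the endoplasmic reticulum (22 reads and 4.74 in VCP, 17 and 2.79 in Flag), and SLC33A1, an acetyl-CoA carrier (16 and 14 reads). The cytoskeleton list had 7 of 346 (2.02%), including ZYX, the focal adhesion protein zyxin, and DYNLL1, a dynein light chain. That count takes CFAP298 and CFAP298-TCP10L as separate genes. The ZYX peak was shared with FAM131B and the DYNLL1 peaks with SRSF9. GABPB2, a beta subunit of the ETS partner GABP, was the only 1 of 30 in the ETS list and the first-ranked gene in both lists together, with 20 VCP reads (12.2 to 30.9) and 24 Flag reads (15.4 to 35.7). Of 70 replication-dependent histone genes 2 had a VCP peak at an end, H2AC15 and H2BC26, and both had a member (2.86%). Flag peaks lay at an end of 41.4% of that list, against 11.7% of all protein-coding genes. H2BC26 was a near miss with a gap of 475 bp and a Flag q of 0.50. The p53 target, nuclear pore, olfactory receptor, immediate early and ubiquitin-coding gene lists had 0 genes at an end, and so had the markers of other cell types (20 genes) and of intestinal epithelium (21). With 0.982% of all genes having a member, 0 is near background in lists of these sizes, the 389 olfactory receptor genes apart. The immediate early, other cell type and intestinal epithelium lists had 0 genes with any VCP peak at an end. Each of the rest had 1 or 2. MYC and the immediate early gene NR4A1 held members in their bodies, NR4A1 with 12 VCP and 17 Flag reads.

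**Figure D3:**
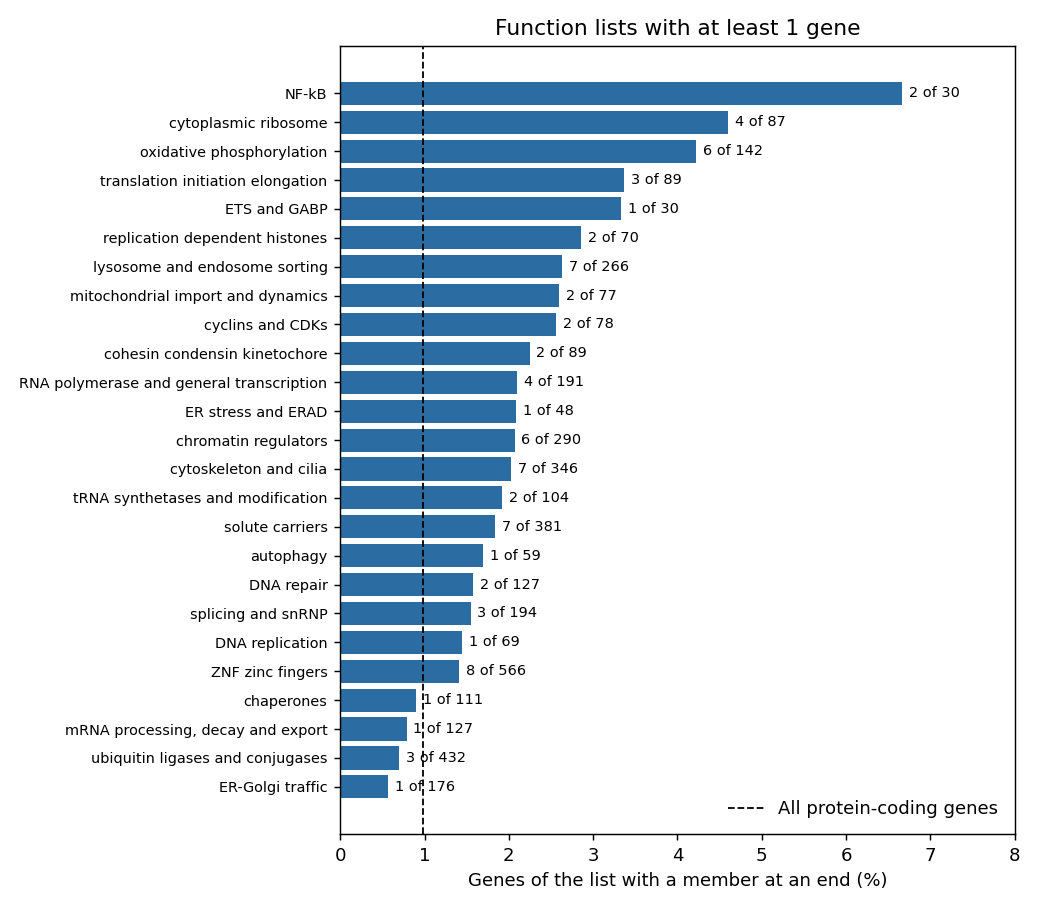
Share of each function list's genes with a member at an end (horizontal axis, percent), for the 25 of 37 lists with at least 1 such gene; the numbers give genes with a member of all genes in the list, and the dashed line is the 0.982% over all protein-coding genes. Small counts lie behind the longest bars, such as 2 of 30 for NF-kB.

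Non-coding genes were also met. Of the members 54 (20.8%) lay within 1 kb of an end of a lncRNA gene, against 6.28% of the other VCP peaks, but only 12 of these were away from a protein-coding end. At 4 members tRNA genes were within 1 kb (1.54% of members and 0.194% of other VCP peaks), 7 tRNA genes in all. The nearest was TRK-CTT2-5, a lysine tRNA gene 18 bp from the summit of a peak with 13 VCP and 11 Flag reads. Another member lay 83 bp from an aspartate tRNA gene, TRD-GTC2-10. The other pair were at NDUFS7 and AGBL5.

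The summits of the antibodies lay a median of 111 bp apart (interval of the median 87 to 142; quartiles 45 and 314), less than the smallest peak widths, 181 bp for VCP and 180 bp for Flag. Members were chosen for peaks that overlap or lie within 1 kb, so the rule itself holds this offset down. In the 196 overlaps the median was 78.5 bp (quartiles 37.8 and 144) and the largest 422 bp, at ZFAND3. The offset was at most 100 bp in 126 of them and 0 in 7, among which PDE12 was the only 1 at a gene end. Overlaps away from gene ends had a median of 63.5 bp and those at gene ends 79.0 bp. The overlaps were rarely grazing: the median shared 95.3% of the shorter interval, 77 had the shorter interval wholly inside the longer, and 178 shared at least 50% of it. SERTAD1, with 5 bp shared and summits 337 bp apart, was the smallest overlap.

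**Figure D4:**
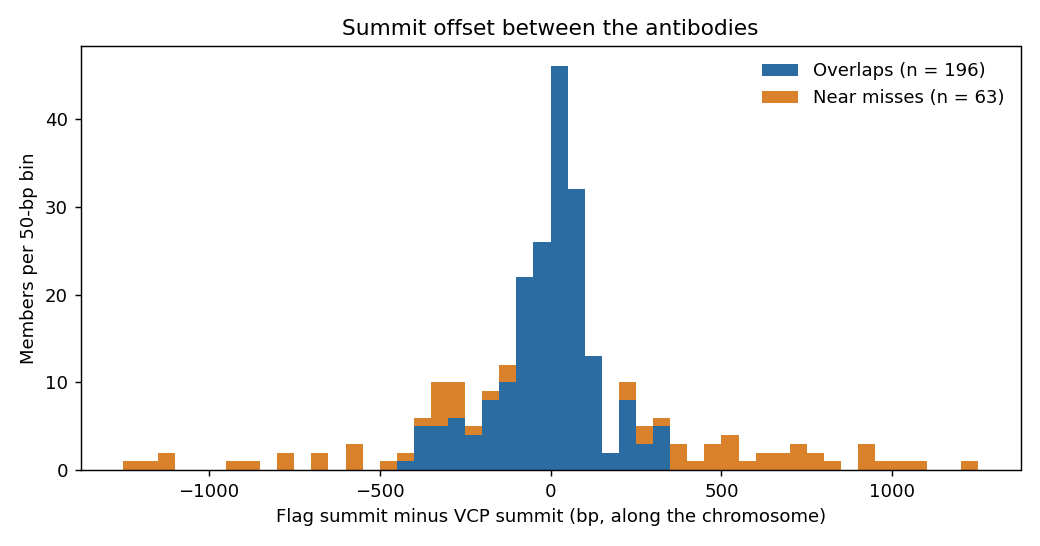
Number of members (vertical axis, per 50-bp bin) by the signed distance from the VCP summit to the paired Flag summit (horizontal axis, bp along the chromosome), stacked for overlaps (blue, n = 196) and near misses (orange, n = 63). Overlaps form a narrow hump around 0 and none lies beyond 422 bp, while near misses spread from 130 to 1217 bp on both sides.

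Near misses had summits a median of 544 bp apart (quartiles 331 and 764, range 130 to 1217). The bases between their intervals numbered a median of 248 (1 to 959), and the counts thinned with distance: 32 members had a gap of 1 to 250 bp, 17 of 251 to 500, 8 of 501 to 750 and 6 of 751 to 1000. Beyond the limit, 17 VCP peaks had a gap above 1000 and up to 2000 bp, then 11, 7 and 11 in each further kilobase up to 5000 bp. The smallest gap was at AGBL5, where 1 bp separated the VCP peak from a Flag peak 1020 bp wide with its summit 928 bp away. The largest inside the limit were CCNG2, an atypical cyclin (926 bp), and SPIN1, a reader of histone methylation (959 bp), and another site, between genes, had 909 bp. Just outside stood peaks at 1002 bp near CXCL12, 1085 bp in OSBPL3 and 1097 bp near KCNQ3.

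The near misses lay in much the same places as the overlaps and had the same median VCP fold enrichment, but fewer of their peaks were strong. Gene ends held 58.7% of near misses (45.6 to 71.0) and 65.3% of overlaps (58.2 to 71.9), and the median VCP fold enrichment was 3.50 in both. A q of at most 0.05 in the VCP list was reached by 5 near misses (7.94%, 2.63 to 17.6) and 37 overlaps (18.9%, 13.7 to 25.1), and over all VCP peaks by 6.49%. For the paired Flag peak it was 39.7% (27.6 to 52.8) and 62.2% (55.1 to 69.1), with 33.8% over all Flag peaks. Near misses stood near each list's background by this measure and overlaps above it. The intervals of near misses and overlaps meet for the VCP shares and not for the Flag shares. ZYX had the strongest VCP peak among near misses, with 16 reads (9.15 to 26.0), a fold enrichment of 6.20 and a -log10 q of 4.97; its Flag peak, 62 bp away, had 10 reads (4.80 to 18.4) and 3.86. At HNRNPA2B1, an RNA-binding protein gene, the VCP summit was 578 bp downstream of the start and the Flag summit 639 bp upstream. STAT3, a transcription factor of cytokine signalling, had its summits 101 bp downstream and 292 bp upstream of the start, and TRMT1 and RNF20 also had the start between them.

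Peaks were somewhat wider among members than elsewhere in both lists. VCP peaks of members had a median width of 222 bp (interval of the median 212 to 233; quartiles 196 and 298; range 181 to 642) and other VCP peaks 210 bp. The paired Flag peaks had a median of 257 bp (243 to 283; quartiles 211 and 394; range 180 to 1097) and the other Flag peaks 231 bp. The Flag interval was the wider in 160 members, the VCP interval in 97, and 2 were equal. Widths in the lists showed little relation: across the 259 members Pearson's r of log2 width was 0.03 and Spearman's rho 0.04, as a description without a test. Near misses were narrower in both lists (209 and 239 bp) than overlaps (226.5 and 274.5 bp), and a wider interval is itself more likely to overlap another. Among members the widest VCP peaks were those in CYRIB (642 bp) and at CCDC88A (562 bp) and KITLG (550 bp), and the widest paired Flag peaks those in DHRSX (1097 bp) and at AGBL5 (1020 bp).

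Fold enrichment, the peak caller's ratio of reads at the summit to local background with 1 read added to each, was modest throughout. Members had a median of 3.50 in the VCP list (interval 3.41 to 3.65) and other VCP peaks 3.23, and paired Flag peaks had 3.86 (3.76 to 4.03) and other Flag peaks 3.49. The Flag value was the higher in 176 of 259 members and at least 1.5 times the VCP value in 27, while the reverse held in 10. Read counts show how thin the evidence at each site is: the median member had 10 VCP reads and 13 Flag reads at its summit. Only 29 members had a q of at most 0.05 in both lists, 13 in the VCP list alone, 118 in the Flag list alone and 99 in neither. Stronger VCP peaks had a Flag peak nearby more often, from 10.5% (8.41 to 12.8) below a -log10 q of 0.25 to 56.5% (41.1 to 71.1) at 2 or more. By fold enrichment the share went from 8.89% below 3 to 46.3% at 4.5 or more.

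Agreement in strength between the lists was loose. Pearson's r of log2 fold enrichment across members was 0.28 and Spearman's rho 0.26, with 0.35 in overlaps and -0.06 in near misses for r. The points share local background and gene structure, and these values are given with no test. Part of that r came from 3 members in regions of very high background, all overlaps. Without them it was 0.21 across members and 0.27 in the remaining 193 overlaps. The 3 lie far from genes on chromosomes 16 and 17 (chr16:46390602-46390791, chr16:34588034-34588336 and chr17:26881279-26881474), had 702, 380 and 132 VCP reads at fold enrichments of only 2.21, 1.66 and 2.72, and were the only VCP peaks with a background above 10 reads. Their -log10 q was the highest of all members, and their summits lay 0, 0 and 28 bp from the Flag summits. Apart from them the lowest sum of the ranks of -log10 q in both lists belonged to a site between genes on chromosome 17 (chr17:39046995-39047223), nearest to PLXDC1. It had 16 VCP reads (9.15 to 26.0) and 21 Flag reads (13.0 to 32.1) and fold enrichments of 6.20 and 7.73. In the VCP list alone the peaks at ATG101 and ARMH3 had a higher -log10 q (7.87 and 6.94, against 4.97).

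**Figure D5:**
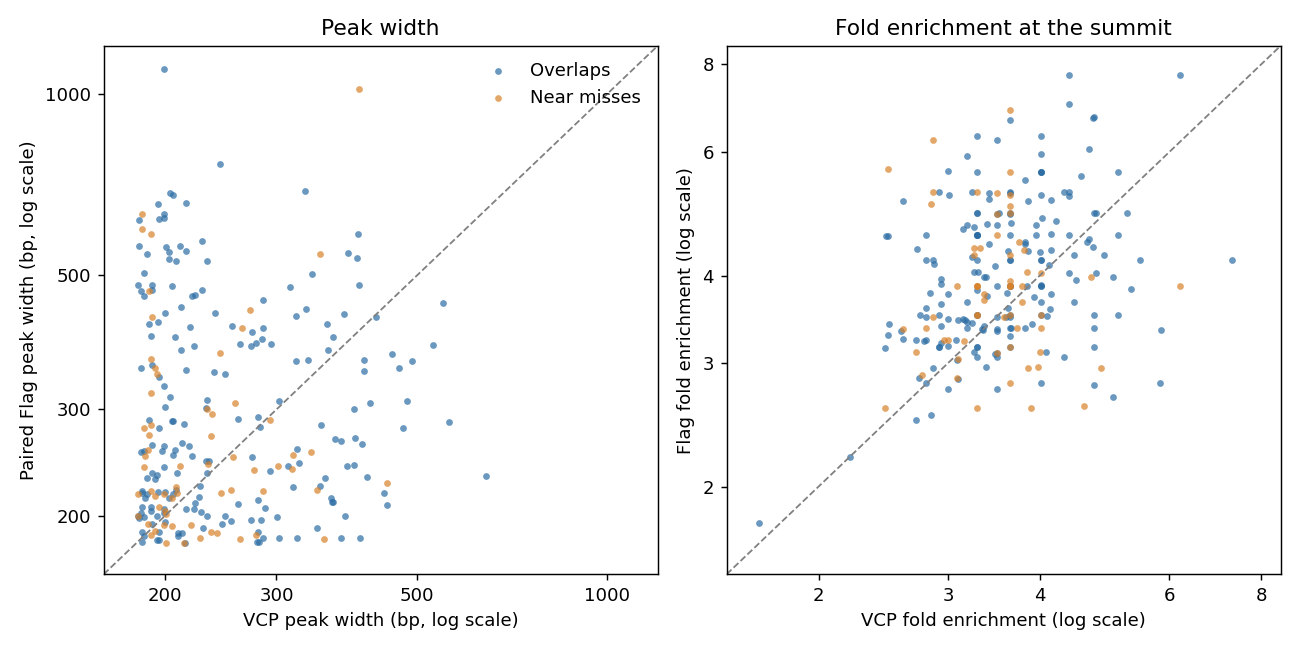
Left, width of the paired Flag peak against that of the VCP peak (bp, log axes); right, Flag against VCP fold enrichment (log axes), with overlaps in blue, near misses in orange and the dashed line marking equal values, each point 1 of 259 members. Widths form no band along the line, and 176 members lie above it in fold enrichment.

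Members and Flag intervals did not always match 1 to 1. The 259 members had 255 distinct nearest Flag peaks, since 4 Flag peaks were nearest to 2 members each, at SGMS1, GNAI2, NOCT and the shared start region of SRSF9 and DYNLL1. At each of these 4 sites 1 member overlapped the Flag peak and the other was a near miss, so 4 of the near misses stood beside an overlap. NOCT, a gene under circadian control, had the widest such spread, with a near miss 877 bp from the interval. Conversely 15 members had 2 Flag peaks within 1 kb. In 13 of them the nearest overlapped and the other stood apart; at EMILIN2 and ANKRD50 neither overlapped. At HNRNPA0 the Flag peak that overlapped had a fold enrichment of 4.75 and the second, 3 bp outside the VCP interval, 3.51. HEXIM1 was the reverse, with 3.46 for the overlapping Flag peak and 4.33 for the one 550 bp away.

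Chromosomes 17 and 19 held the highest shares of VCP peaks with a Flag peak nearby, 29 of 92 (31.5%, 22.2 to 42.0) and 21 of 71 (29.6%, 19.3 to 41.6), against 14.4% over all. On the long arm of chromosome 17 it was 26 of 74 (35.1%, 24.4 to 47.1). The arms known as gained in HCT116, 8q, 10q and 17q, together had 52 of 273 (19.0%, 14.6 to 24.2) and the rest of the genome 207 of 1530 (13.5%, 11.9 to 15.3). Among these arms 8q had 13.6% and 10q 12.3%, so 17q alone stood above the share over all VCP peaks. Gene density also differs between these chromosomes, and its part in the shares was not tested. At the level of genes, 196 had a peak of each list at an end, and 187 of them had a member there. The other 9, which include EFNA1, MC1R and PPOX, had their nearest summits of the lists 1463 bp or more apart. Because summits at an end were within 1 kb of it, most such pairs meet the member rule by construction. The count of 187 is therefore no measure of agreement between the antibodies.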

How the data were processed

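The build was hg38 and MACS2 2.1.0 is among the tools, with Bowtie 1.1.2, Trimmomatic 0.33 and bcl2fastq 2.17, per the submitters' processing notes. Settings were not given in the sources. Per the labels' protocols, 10 ng of DNA went into each library, amplified for 8 cycles and kept at 250 to 450 bp. Each deposited list gives, per peak, the authors' fold enrichment (a ratio), -log10 p and -log10 q, and a score equal to 10 times -log10 p, which was not used further. Peaks were called per library, and the lowest deposited -log10 p was 3.00 in both lists. The input was not used here.

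Whole reads at each summit were sought whose Poisson tail gave the authors' -log10 p, with the background set by the fold enrichment; all 1816 VCP and 5719 Flag peaks matched within 0.001. The lowest background was 1.74 reads (VCP) and 1.85 reads (Flag). Each member was paired with its nearest Flag peak, or the one sharing most bases. Ends came from 19866 protein-coding genes of the RefSeq GRCh38.p14 table, and starts and sequences from 22175 RefSeq promoter windows, which cover 79.7% of these genes. Of 492 symbols written into the function lists 488 matched. Scripts used Python 3.11.15, pandas 2.3.3 and scipy 1.17.1 and were tested on simulated data.

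The members, lists and rule for named genes were chosen with earlier results of these data known. Named were the first members by -log10 q in each list, in both and among near misses, the extremes of gap, offset and width, those at the 1 kb limit or with 2 Flag peaks, up to 4 genes a function list and the first promoters by rank. Not all are printed, and other genes named were chosen after their values were seen. No test was run, since each antibody had 1 library and both lists chose the members.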

Additional observations from a re-analysis of the deposited data

How the results depend on the processing

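Of 69 recomputed values 46 moved by less than the main value's interval or, for counts, by less than 1.5 times. Requiring overlap left 10.9% of the VCP list, and requiring summits within 200 bp left 162 members (8.99%). A q of at most 0.05 in the VCP list kept 42 members (35.9% of such peaks), 37 overlaps and 5 near misses, with 71.4% at gene ends, a median offset of 52.5 bp, a median Flag width of 235.5 bp and a median VCP fold enrichment of 4.74. Pairing anew with only the Flag peaks at a q of at most 0.05 kept 150 members (8.32%), 122 overlaps and 28 near misses, counting any such peak within reach and not the nearest of all Flag peaks alone, with a median Flag width of 286.5 bp and fold enrichment of 4.56. Gene-end windows of 500 and 3000 bp gave 53.3% and 70.7% of members at ends. Overlaps only had a median offset of 78.5 bp; near misses only had 544 bp and median widths of 209 bp (VCP) and 239 bp (Flag). The smaller numbers follow from fewer peaks entering; the cause of the other shifts was not tested. Leaving out VCP peaks over a background above 10 reads, chosen after seeing the data, kept every main value within those limits. No paired analysis was possible because each antibody had 1 library, and no library could be left out. At a median of 10 VCP reads per summit, a site absent from a list was not shown to lack signal.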
